A study of Mus musculus with 4 samples.

Results

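Type I interferon-stimulated genes are the antiviral genes that cells switch on when they sense interferon alpha or beta. The set described here held 34 genes, chosen by symbol from a list of genes known for this response, and all 34 were among the 31748 genes in the count tables. Of these, 33 passed the filter on low counts. Ifit3b did not pass it. The rule uses symbols only and no measured value, although the genes were chosen with earlier results of these data known.

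The libraries came from mouse T cells labelled CD4+ and purified by positive magnetic selection from spleens of mice aged 8 weeks. These mice were either TEaWT (WT, 2 libraries) or TEaMthfd2 KO (KO, 2 libraries). TEa is a T cell receptor transgene that recognises a BALB/c class II peptide shown on a C57BL/6 class II molecule. Every culture also held antigen-presenting cells (APCs), taken from spleens of F1 (BALB/c x C57BL/6) animals of 8 weeks and treated with mitomycin, and ran for 3 days. By the labels, the comparison asks what Mthfd2, an enzyme of mitochondrial folate metabolism, does for the transcripts of alloreactive T cells. Neither the deleted part of Mthfd2 nor the cells that lack it are stated, and nothing says that replicates were separate mice or cultures. P-values accordingly reflect only how far replicate libraries differed, and this spread may be technical.

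Total counts lay between 14191401 and 15955863 per library. Checks of the cell type went against the labels. Cd8a exceeded Cd4 by 3.10 to 4.00 times, depending on the library. The TEa receptor uses the beta segment Trbv19, which held 6.37% to 8.39% of all Trbv counts, and H2-Ea, the source of its peptide, had at most 2 counts in a library. Mthfd2 itself was at 280 and 280 CPM (read counts scaled to library size with TMM factors) in WT replicates 1 and 2 and at 222 and 252 CPM in the libraries labelled KO (log2 fold change -0.24 ± 0.14, SE, edgeR adjusted p = 0.324). Counts per gene would not show the loss of a single part of it. WT replicate 1 stood apart on the first principal component of all genes, at -65.08 against -19.57 for WT replicate 2 and 40.87 to 43.79 for the KO libraries. Values of the 34 genes are therefore given per library. In libraries of mixed cells, fewer cells of a type and less RNA per cell cannot be told apart.

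Type I interferons bind the receptor chains IFNAR1 and IFNAR2, whose kinases TYK2 and JAK1 activate the transcription factor ISGF3. This complex, which contains STAT2 and IRF9, binds the interferon-stimulated response element (ISRE) in promoters of the genes described here. Their products sense viral nucleic acid, block translation, entry or budding of viruses, and, as USP18 does, damp the signal itself. T cells, B cells, macrophages and dendritic cells can all carry out this response.

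Promoters were read to show which of the genes carry the ISRE, since this is the element that ISGF3 binds. The core searched was GAAANNGAAA on either strand, in the window from 250 bases before to 50 bases after the transcription start. RefSeq promoters of GRCm38.p6 were matched for 24 of the 34 genes. Of these, 12 genes (50%) held the core, against 3.99% of the 27025 genes with a promoter of that length. The core of the gamma-activated site, TTCNNNGAA, was in 7 of the 24 (29.2%), against 9.55% of all. With 1 mismatch allowed in the ISRE core, 23 of the 24 (95.8%) held it, against 38.9% of all genes. The members were chosen as interferon-stimulated genes, so the share is a description of the list.

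The 250 bases before the start are shown for the 4 genes that hold the core and have the greatest KO to WT differences among those that do. Each is printed 5′ to 3′ on the gene's own strand, in GRCm38.p6 coordinates, with the ISRE core in capitals. A core on the opposite strand reads TTTC, any pair of bases, then TTTC.
Ifit3 (chr19:34583279-34583528, plus strand): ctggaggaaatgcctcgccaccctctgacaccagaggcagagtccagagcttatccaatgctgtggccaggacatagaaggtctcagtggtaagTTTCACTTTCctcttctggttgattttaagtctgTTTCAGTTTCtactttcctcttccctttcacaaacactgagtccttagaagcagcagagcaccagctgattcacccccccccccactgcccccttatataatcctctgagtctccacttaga
Isg15 (chr4:156200819-156201068, minus strand): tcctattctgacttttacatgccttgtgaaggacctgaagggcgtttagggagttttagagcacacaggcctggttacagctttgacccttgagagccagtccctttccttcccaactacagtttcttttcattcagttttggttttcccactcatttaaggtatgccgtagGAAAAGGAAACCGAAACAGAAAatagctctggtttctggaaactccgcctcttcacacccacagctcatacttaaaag
Ifit1 (chr19:34640639-34640888, plus strand): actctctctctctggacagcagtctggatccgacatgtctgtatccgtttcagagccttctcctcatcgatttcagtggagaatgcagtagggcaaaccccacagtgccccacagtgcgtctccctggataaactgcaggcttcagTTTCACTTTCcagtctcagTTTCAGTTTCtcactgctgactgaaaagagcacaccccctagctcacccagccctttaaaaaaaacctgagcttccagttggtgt
Rsad2 (chr12:26456453-26456702, minus strand): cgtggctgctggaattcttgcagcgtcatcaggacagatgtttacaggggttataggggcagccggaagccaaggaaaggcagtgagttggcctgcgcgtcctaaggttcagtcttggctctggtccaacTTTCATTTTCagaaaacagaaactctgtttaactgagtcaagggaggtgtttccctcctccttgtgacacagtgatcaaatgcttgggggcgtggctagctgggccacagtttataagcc
In Isg15, 3 overlapping cores began at -78, -72 and -66, counted back from the transcription start. Ifit1 held a pair, at -104 and -85, and Ifit3 a pair, at -156 and -122. Rsad2 held 1, at -120. The core is a match of letters and was not tested for binding.

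In 30 of the 34 genes the highest level was that of WT replicate 1, a share that was not computed over all genes. The summed level was 1692 CPM in WT replicate 1, 1040 CPM in WT replicate 2, 1154 CPM in KO replicate 1 and 931 CPM in KO replicate 2. WT replicate 2 therefore lay between the KO libraries in the sum, although 18 genes, taken one at a time, had both KO libraries below both WT libraries. The other genes divided into 2, Cmpk2 and Parp9, with both KO libraries above both WT libraries and 14 with overlapping groups. Among all 12752 genes kept, 30.1% had both KO libraries below and 29.8% had both above.

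In edgeR's quasi-likelihood test with Benjamini-Hochberg adjustment over all 12752 genes, Isg15 and Ifi35 fell in KO and no gene of the set rose. These 2 of 33 compare with 1.56% of all genes called lower and 2.39% called higher. At an unadjusted p under 0.05, 17 of the set were lower in KO and 0 were higher, beside 12.7% and 12.8% of all genes. DESeq2, applied to the same counts, called 10 of the set lower and 0 higher, beside 6.39% of the genes it tested called lower and 7.02% called higher. The 10 were Isg15, Usp18, Ifit1, Ifit3, Oas2, Oasl1, Oasl2, Bst2, Ifi35 and Rtp4. The median log2 fold change over the 33 genes was -0.89, and over all genes -0.0026. Without WT replicate 1 the median over the 33 genes was -0.31, and without WT replicate 2 it was -1.20. Without KO replicate 1 it was -1.07, and without KO replicate 2 it was -0.51. Counts of calls also moved when a library was left out, in the set and over all genes.

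**Figure D1:**
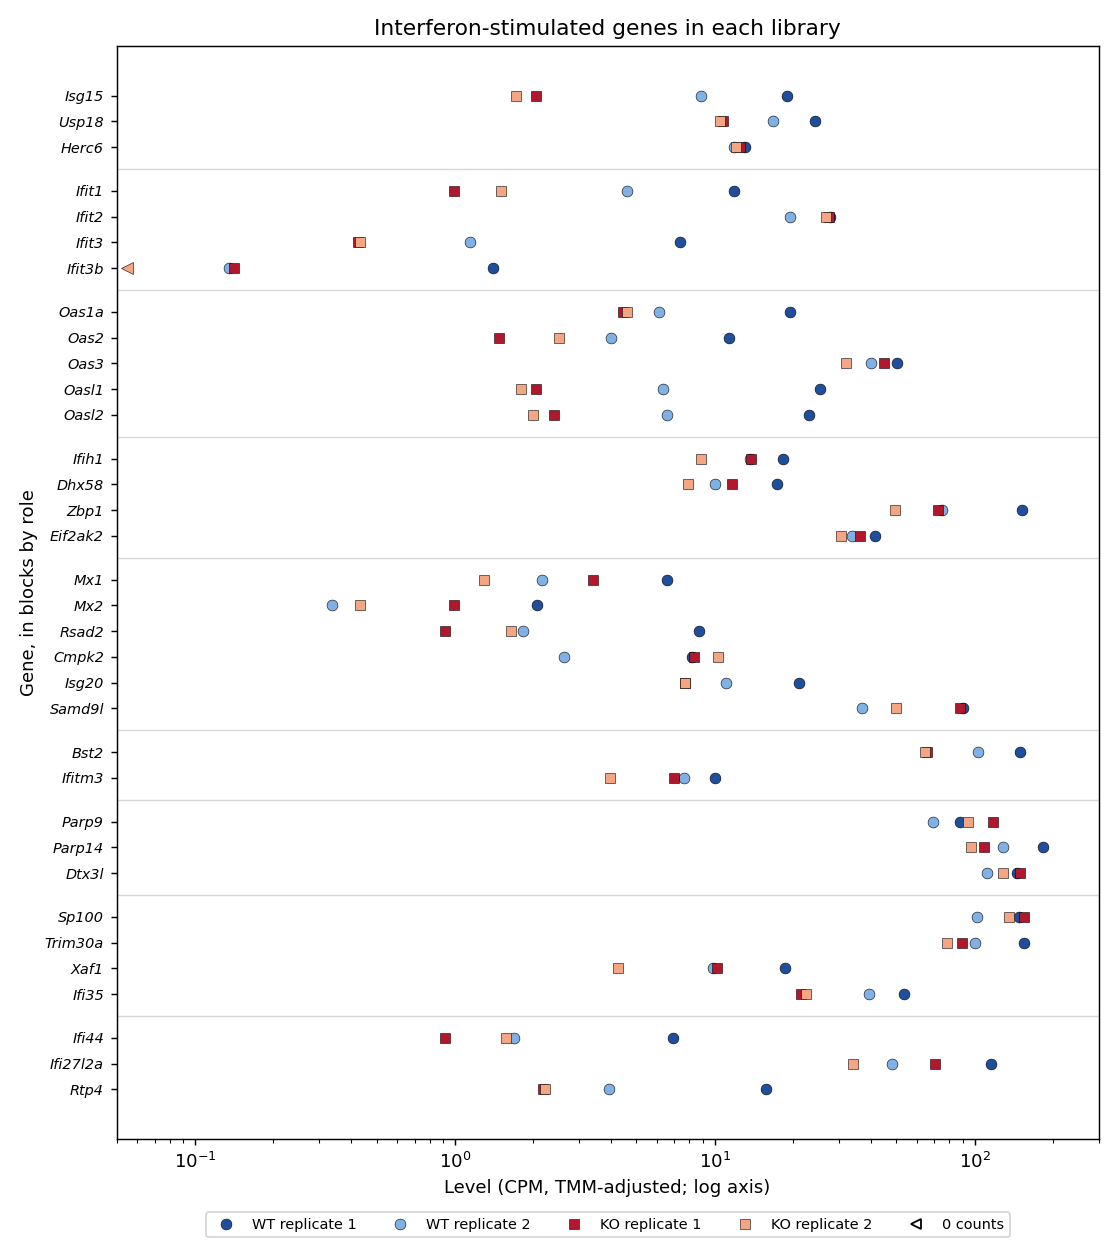
Level of each of the 34 genes (horizontal log axis, CPM after TMM scaling) in the 4 libraries, in blocks by the role of the protein. Circles are WT and squares KO libraries; the triangle at the left edge marks Ifit3b in KO replicate 2, with 0 counts. Dark blue circles (WT replicate 1) lie at or near the right of nearly every row, and both squares lie left of both circles in 18 rows.

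The ISG15 conjugation genes comprised Isg15, a ubiquitin-like protein joined to other proteins, Usp18, the protease that removes it and also restrains the interferon receptor, and Herc6, a ligase that attaches it in mice. Isg15 (ENSMUSG00000035692.6, chromosome 4, 156199424 to 156200818, minus strand, GRCm38) stood at 19.0 and 8.86 CPM in WT replicates 1 and 2 and at 2.05 and 1.72 CPM in KO replicates 1 and 2. Both KO libraries were far below both WT libraries, on 29 and 24 counts against 311 and 131. Its log2 fold change was -2.88 ± 0.46 (SE, n = 2 libraries per group, edgeR adjusted p = 0.0397). WT replicate 2 alone was at 4.70 times the KO mean, and without WT replicate 1 the log2 fold change was -2.22 with an edgeR adjusted p of 0.0398. The call was lost when either KO library was left out (edgeR adjusted p = 0.322 without replicate 1 and 0.208 without replicate 2) and with limma-voom (adjusted p = 0.0535).

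Usp18 was at 24.4 and 16.8 CPM in WT and at 10.8 and 10.5 CPM in KO. Its groups did not overlap, and its log2 fold change of -0.96 ± 0.26 missed the threshold (edgeR adjusted p = 0.0859). Herc6 was level, at 13.1 and 11.9 CPM in WT and 12.5 and 12.1 CPM in KO, with a log2 fold change of -0.02 ± 0.24. It was the gene of the set that varied least between libraries. Herc6 shares 23.8% of its 50-base words with the overlapping gene model Gm45193, so part of its count may belong to that model.

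Proteins of the IFIT family bind viral RNA that lacks host cap marks and hold back its translation. Their genes lie side by side on chromosome 19, with Ifit2 (starting at 34550694), Ifit3 (34583531), Ifit3b (34607970) and Ifit1 (34640871) all on the plus strand. Ifit1 was at 11.9 and 4.60 CPM in WT and at 0.990 and 1.51 CPM in KO (14 and 21 counts). Both KO libraries were below both WT libraries, and the log2 fold change of -2.72 ± 0.58 just missed the threshold (edgeR adjusted p = 0.0514). Ifit3 had the greatest difference of the 33 genes, at 7.33 and 1.15 CPM in WT and 0.424 and 0.430 CPM in KO (log2 fold change -3.29 ± 0.96, edgeR adjusted p = 0.0983). That value rested mostly on WT replicate 1, with 120 counts against 17, 6 and 6 in the others, and was -1.40 without it. Ifit3b held 23 reads in WT replicate 1, 2 in WT replicate 2, 2 in KO replicate 1 and 0 in KO replicate 2, too few to test; a count of 0 allows up to 3 counts.

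Ifit2 did not go with its neighbours. It stood at 27.7 and 19.5 CPM in WT and at 27.6 and 26.9 CPM in KO (log2 fold change 0.21 ± 0.23, edgeR adjusted p = 0.604). Ifit3 and Ifit3b are near copies, with 51.2% of the 50-base words of Ifit3 found in Ifit3b, and reads in the shared stretches could be assigned to either, so their separate values are uncertain. Ifit2 shares none of its words with another gene.

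Enzymes of the OAS family make 2-5A, the messenger that activates RNase L, when they meet double-stranded RNA, and the OASL proteins are relatives that act on RNA sensing and translation. Oasl1 was at 25.4 and 6.35 CPM in WT and at 2.05 and 1.79 CPM in KO (log2 fold change -3.04 ± 0.67, edgeR adjusted p = 0.0541). Oasl2, its neighbour on chromosome 5, was at 23.1 and 6.56 CPM in WT and 2.40 and 2.01 CPM in KO (log2 fold change -2.75 ± 0.61, edgeR adjusted p = 0.0565). In both genes the KO libraries were close to each other and below WT replicate 2, while WT replicate 1 was at 4.00 and 3.52 times WT replicate 2.

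Oas1a was at 19.5 and 6.08 CPM in WT and 4.45 and 4.59 CPM in KO, and Oas2 was at 11.4 and 3.99 CPM against 1.49 and 2.51 CPM. Their log2 fold changes were -1.50 ± 0.54 and -1.94 ± 0.59 (edgeR adjusted p = 0.148 and 0.107). WT replicate 2 stood at 1.35 times the KO mean for Oas1a and at 2.00 times for Oas2. Oas1a shares 57.6% of its 50-base words with Oas1g, so its count is uncertain. Oas3, at 5.91 CPM per kilobase of exon the highest of the family by mean level, varied little, at 50.2 and 40.0 CPM in WT and 45.0 and 31.9 CPM in KO (log2 fold change -0.23 ± 0.22). Of the 5 genes, 4 had both KO libraries below both WT libraries (30.1% of all genes did), and edgeR called none; 4 had an unadjusted p under 0.05, all lower in KO (12.7% of all genes), while DESeq2 called 3 lower.

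Of the 4 genes for sensors of foreign nucleic acid, Zbp1 had both KO libraries below both WT libraries. IFIH1 (MDA5) detects long double-stranded RNA in the cytosol, DHX58 (LGP2) modulates that detection, ZBP1 binds Z-form nucleic acid and can start necroptosis, and EIF2AK2 (PKR) stops translation on meeting double-stranded RNA. Zbp1, at a mean of 24.7 CPM per kilobase the highest of these genes, was at 152 and 75.0 CPM in WT and 72.4 and 49.6 CPM in KO (log2 fold change -0.90 ± 0.35, edgeR adjusted p = 0.172). WT replicate 2 and KO replicate 1 were nearly level for Zbp1, while WT replicate 1 was at 2.03 times WT replicate 2. Ifih1 was at 18.3 and 13.7 CPM in WT and 13.9 and 8.89 CPM in KO, and Dhx58 at 17.4 and 10.1 CPM against 11.7 and 7.89 CPM. For each of them the groups overlapped and the log2 fold change was -0.49 (SE 0.31 for Ifih1 and 0.35 for Dhx58). Eif2ak2 stayed between 30.7 and 41.2 CPM in all libraries, with a log2 fold change of -0.16 ± 0.19.

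Among effectors, the Mx GTPases trap viral nucleoproteins, RSAD2 (viperin) makes a chain-ending nucleotide from CTP, CMPK2 is a mitochondrial nucleotide kinase, ISG20 is an exonuclease of RNA, and SAMD9L restrains translation and cell growth. Rsad2 was at 8.74 and 1.83 CPM in WT and 0.919 and 1.65 CPM in KO (log2 fold change -2.04 ± 0.79, edgeR adjusted p = 0.170). Its WT replicate 2 was close to KO replicate 2, and the difference without WT replicate 1 was -0.50. Cmpk2, the next gene on chromosome 12 and transcribed away from Rsad2 (starting at 26469204, where Rsad2 starts at 26456452), went the other way at 8.19 and 2.64 CPM in WT and 8.34 and 10.3 CPM in KO. Its log2 fold change of 0.78 ± 0.52 was the highest of the set and was not called (edgeR adjusted p = 0.386). Here WT replicate 2 was the low library, and WT replicate 1 was level with KO replicate 1.

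Isg20 was at 21.2 and 11.1 CPM in WT and at 7.71 and 7.67 CPM in KO (log2 fold change -1.07 ± 0.35, edgeR adjusted p = 0.126), with no overlap of the groups. Mx1 was at 6.54 and 2.16 CPM in WT and 3.39 and 1.29 CPM in KO, and Mx2 at 2.08 and 0.338 CPM against 0.990 and 0.430 CPM. For both Mx genes each group held a higher and a lower library, and their log2 fold changes of -0.89 ± 0.69 and -0.77 ± 0.95 did not pass the test (edgeR adjusted p = 0.454 and 0.649). Samd9l had the same order of libraries as Mx1 in WT and in KO, with 90.6 and 37.0 CPM in WT and 87.7 and 50.0 CPM in KO (log2 fold change 0.11 ± 0.44).

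Of the membrane proteins, BST2 (tetherin) holds budding virus at the cell surface and IFITM3 blocks fusion of virus in endosomes. Bst2 was at 150 and 103 CPM in WT and at 65.9 and 64.3 CPM in KO. The KO libraries were level with each other and below both WT libraries, with a log2 fold change of -0.96 ± 0.21 that missed the threshold (edgeR adjusted p = 0.0539). Ifitm3 was at 10.0 and 7.64 CPM in WT and 7.0 and 3.94 CPM in KO (log2 fold change -0.69 ± 0.38, edgeR adjusted p = 0.298). BST2 is also a marker of plasmacytoid dendritic cells, the type known for making the most interferon alpha.

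PARP9 and DTX3L form a complex of an ADP-ribosyltransferase relative and a ubiquitin ligase, and PARP14 is a related ADP-ribosyltransferase. Parp9 was at 87.8 and 69.2 CPM in WT and at 118 and 94.7 CPM in KO (log2 fold change 0.44 ± 0.19, edgeR adjusted p = 0.218). Dtx3l, whose transcript overlaps that of Parp9 over 458 bases on the opposite strand, was at 146 and 111 CPM in WT and 150 and 128 CPM in KO (log2 fold change 0.11 ± 0.19). Parp14 differed from this pair, at 183 and 129 CPM in WT and 109 and 97.1 CPM in KO (log2 fold change -0.60 ± 0.20, edgeR adjusted p = 0.136). Both KO libraries were thus above WT for Parp9, overlapped with it for Dtx3l and were below it for Parp14, and edgeR called none of the 3 (1, lower in KO, had an unadjusted p under 0.05, while DESeq2 called 0).

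The nuclear and regulatory proteins were SP100, a part of PML nuclear bodies, TRIM30A, a TRIM protein that restrains inflammatory signalling, XAF1, which promotes cell death, and IFI35, a leucine zipper protein. Ifi35 (ENSMUSG00000010358.13, chromosome 11, 101448407 to 101458698, plus strand) was at 53.5 and 39.2 CPM in WT and at 21.4 and 22.4 CPM in KO. Its KO libraries were level with each other, the WT mean was 2.12 times the KO mean, and it fell by 1.08 ± 0.20 on the log2 scale (SE, n = 2 libraries per group, edgeR adjusted p = 0.0438). The call was lost without WT replicate 1 (log2 fold change -0.83, edgeR adjusted p = 0.0696) and without KO replicate 1 or 2 (edgeR adjusted p = 0.335 and 0.217), and with upper quartile factors (edgeR adjusted p = 0.0512). The antisense gene model Gm11626 overlaps 290 bases of Ifi35, and these reads could not be told apart without strand.

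Sp100 was at 148 and 103 CPM in WT and 155 and 135 CPM in KO (log2 fold change 0.21 ± 0.21, edgeR adjusted p = 0.559). Trim30a was at 155 and 101 CPM in WT and 89.9 and 78.6 CPM in KO (log2 fold change -0.60 ± 0.23, edgeR adjusted p = 0.168). The groups overlapped for Sp100 and did not for Trim30a. Xaf1 was at 18.7 and 9.87 CPM in WT and 10.2 and 4.23 CPM in KO (log2 fold change -0.99 ± 0.49, edgeR adjusted p = 0.255), with the KO libraries 2.41-fold apart.

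The last genes were Ifi27l2a, a small protein of the ISG12 family, Ifi44, a cytoplasmic protein with a GTP-binding motif, and Rtp4, a receptor chaperone. Rtp4 was at 15.7 and 3.92 CPM in WT and 2.19 and 2.22 CPM in KO (log2 fold change -2.15 ± 0.65, edgeR adjusted p = 0.106). Ifi44 was at 6.90 and 1.69 CPM in WT and 0.919 and 1.58 CPM in KO (log2 fold change -1.78 ± 0.75, edgeR adjusted p = 0.196). For both, WT replicate 1 was far above WT replicate 2 (4.00 times for Rtp4 and 4.08 times for Ifi44), which in Ifi44 lay next to KO replicate 2. Ifi27l2a was at 116 and 48.2 CPM in WT and 70.7 and 34.1 CPM in KO (log2 fold change -0.65 ± 0.47, edgeR adjusted p = 0.425). Per kilobase of exon it was the most abundant gene of the set, at a mean level of 145 CPM per kilobase, followed by Bst2 at 106, Trim30a at 25.8 and Zbp1 at 24.7. The lowest were Ifi44 at 0.452, Mx2 at 0.265 and Ifit3b at 0.210 CPM per kilobase.

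**Figure D2:**
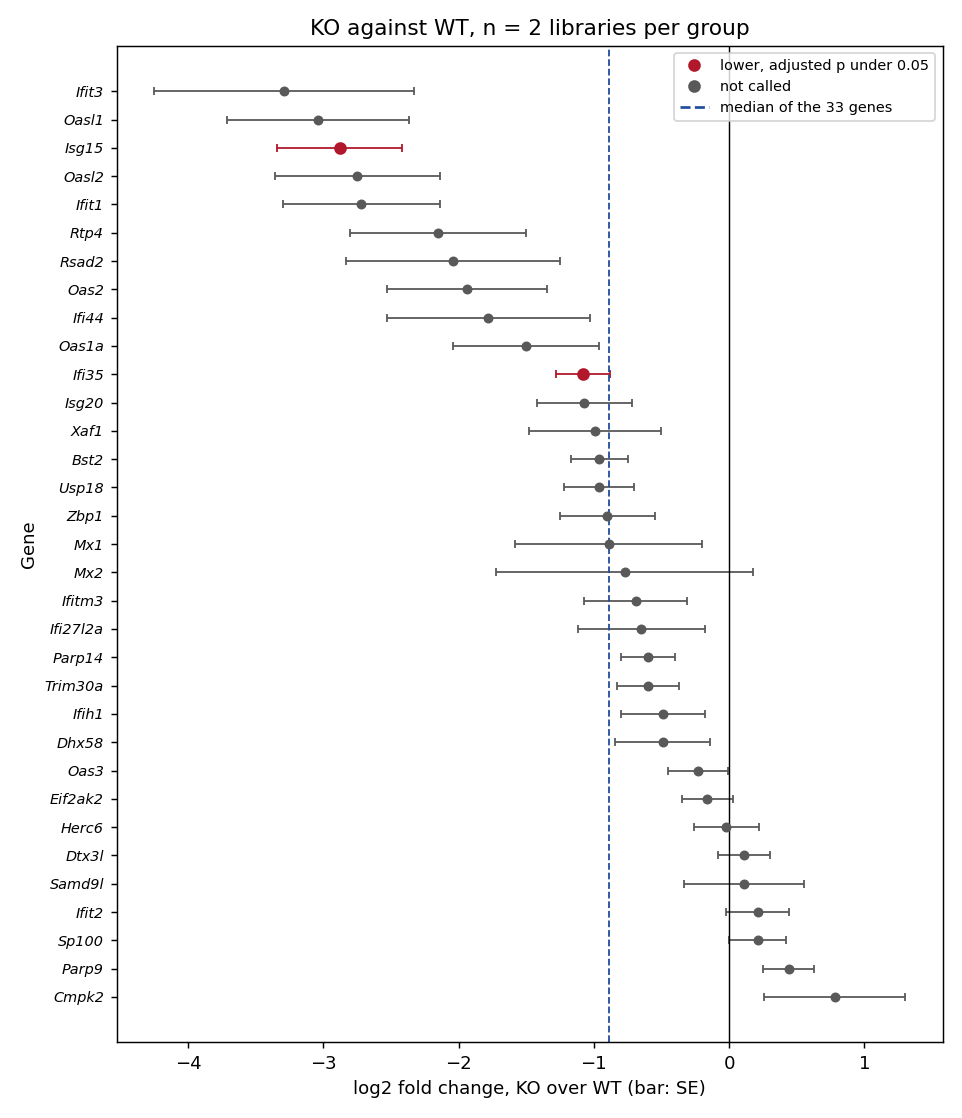
Log2 fold change of KO over WT for the 33 tested genes, ordered by size, with the standard error as a bar (n = 2 libraries per group). Isg15 and Ifi35, in red, passed an edgeR adjusted p of 0.05; the dashed line is the median of -0.89. Genes such as Ifit3 and Oasl1 had greater differences than Ifi35 and wider errors.

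The presence of the ISRE core and the difference between groups were set side by side. Of the 11 tested genes with the ISRE core, 8 had both KO libraries below both WT libraries, with a median log2 fold change of -0.96 and a range from -3.29 to -0.16. The 12 tested genes with a promoter but no core held 5 such genes, with a median of -0.50 and a range from -3.04 to 0.78. Another 10 had no promoter in the table, and 5 of these had both KO libraries below (median -0.83). Over all genes kept the share with both KO libraries below was 30.1%. The 3 groups overlapped over most of their range, and the difference between them was not tested.

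The WT libraries differed from each other in one direction. All 34 genes were higher in WT replicate 1 than in WT replicate 2, where 50.2% of all genes were. For 33 of the 34 the exact counting interval of the ratio, which covers counting error only, lay above 1, and the exception was Herc6 (1.10, 95% interval 0.896 to 1.35). In 17 genes the ratio was at least 2, or 16 of the 33 tested, against 4.83% of all genes. The median over the 33 was 0.94 on the log2 scale, a ratio of 1.91, beside 3.0e-03 over all genes.

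The ratio was 6.38 (3.82 to 11.3) for Ifit3, 4.79 (3.16 to 7.51) for Rsad2 and 4.00 (3.19 to 5.06) for Oasl1. It was only 1.36 (1.23 to 1.52) for Ifi35 and 1.26 (1.13 to 1.40) for Oas3. Ifit3, Rsad2 and Oasl1, low in the KO libraries, thus also had wide gaps inside WT. WT replicate 1 was the highest of the 4 libraries in 30 genes. WT replicate 2 lay above both KO libraries in 18 genes, between them in 8 and below both in 8. For these orders of the libraries the share over all genes was not computed. Against the KO mean, the median log2 ratio was 1.20 for WT replicate 1 and 0.32 for WT replicate 2. Each of these sets 1 library against others and has no replicate check.

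**Figure D3:**
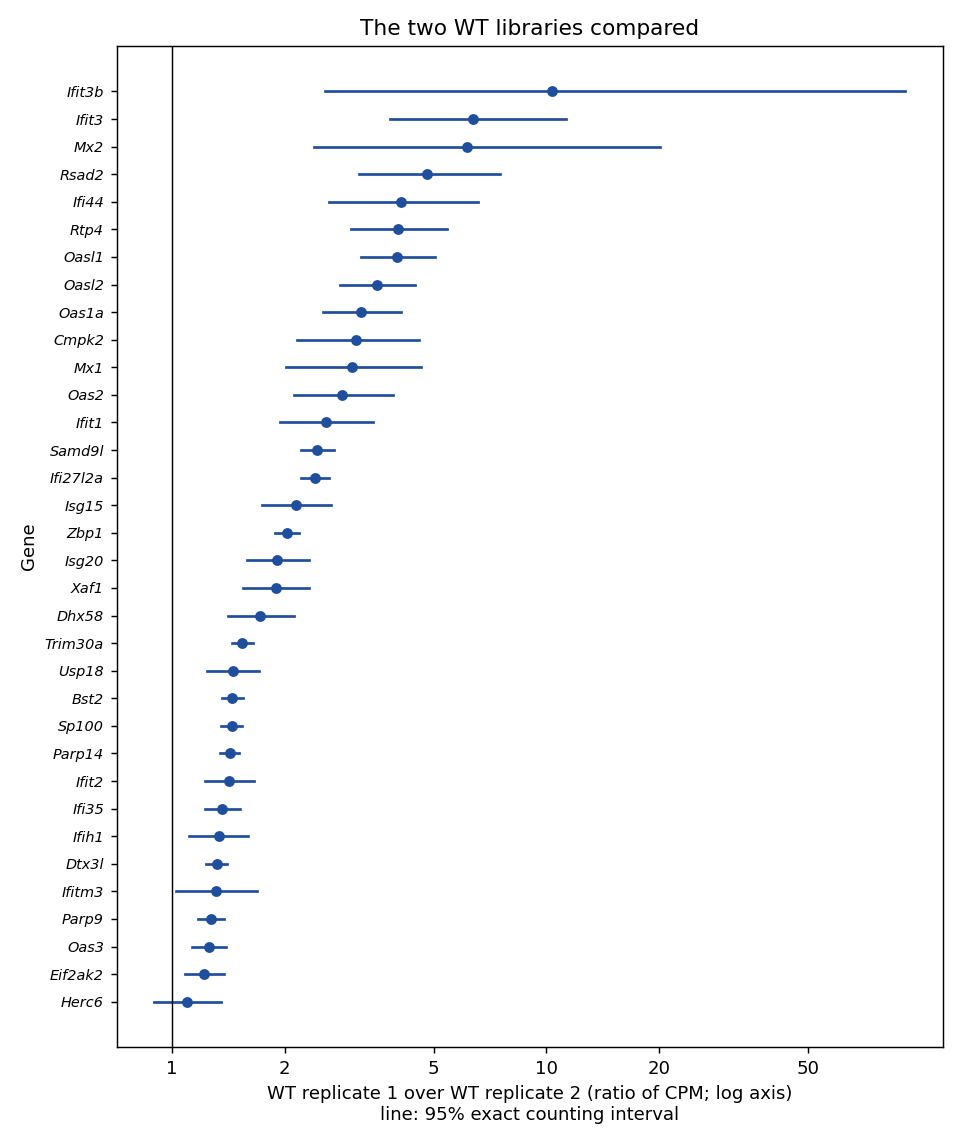
Ratio of WT replicate 1 to WT replicate 2 for each of the 34 genes (log axis, ratio of CPM), with the 95% exact counting interval as a line. All ratios are above 1, from 1.10 for Herc6 to 10.4 for Ifit3b, and the Herc6 line alone crosses 1.

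The KO libraries were closer. KO replicate 1 was above KO replicate 2 in 25 of the 34 genes, with the counting interval above 1 in 15 and below 1 in 0, and the median log2 ratio was 0.19. The same shares over all genes were not computed for the KO pair. Its libraries differed beyond sampling noise over all genes (chi-square per degree of freedom 16.1). The ratio was 2.41 for Xaf1, 2.07 for Ifi27l2a, 1.75 for Samd9l and 1.46 for Zbp1. Isg15 (1.19), Bst2 (1.02), Usp18 (1.03) and Ifi35 (0.958) did not differ between the KO libraries beyond counting error.

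Further genes of the pathway were taken from lists by role. For the ligands, 20 genes of type I and type III interferons had between 0 and 6 counts in all per library, and 16 of them were at 0 in every library. Ifnb1 had 2 counts, in WT replicate 1. No interferon alpha, beta or lambda gene could therefore be compared, since 3 counts, or 0.183 to 0.215 CPM, are the upper limit that a count of 0 allows. Several of these genes are near copies of each other.

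Receptor and ISGF3 genes were all expressed, and 0 of 7 were called in either direction (at an unadjusted p under 0.05, edgeR had 0 lower and 1 higher, and DESeq2 called 0 lower and 1 higher). Jak1, the receptor kinase, was at 407 and 361 CPM in WT and 441 and 448 CPM in KO. Irf9 was at 107 and 56.1 CPM against 56.0 and 38.9 CPM (log2 fold change -0.78 ± 0.33, edgeR adjusted p = 0.197). Stat2 was at 102 and 73.1 CPM against 77.4 and 55.6 CPM. Irf9 and Stat2, which encode parts of ISGF3 and are themselves interferon-inducible, showed the order seen in many members, with WT replicate 1 highest. Ifnar1 had both KO libraries above both WT libraries, at 88.5 and 72.9 CPM in WT and 125 and 123 CPM in KO (log2 fold change 0.62 ± 0.16, edgeR adjusted p = 0.0808). All 7 genes were higher in WT replicate 1 than in WT replicate 2.

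Among sensors, adaptors and factors that induce interferon, 0 of 16 tested genes rose in KO. At an unadjusted p under 0.05 edgeR had 0 higher, and DESeq2 called 0 higher. The genes that fell numbered 3, beside 1.56% of all genes. They were Tlr7 and Tlr9, endosomal receptors for RNA and DNA, and Irf5, a transcription factor that acts below them. Tlr7 was at 60.9 and 30.7 CPM in WT and 12.3 and 11.5 CPM in KO, Tlr9 at 67.7 and 36.4 CPM against 15.6 and 13.1 CPM, and Irf5 at 66.6 and 46.7 CPM against 22.3 and 22.4 CPM. Their log2 fold changes were -1.95 ± 0.33, -1.86 ± 0.31 and -1.34 ± 0.21 (edgeR adjusted p = 0.0400, 0.0400 and 0.0397). All 3 are known for high expression in B cells and dendritic cells. Irf7, the factor that amplifies interferon alpha genes and is itself interferon-induced, was at 38.7 CPM in WT replicate 1 and only 5.61 CPM in WT replicate 2, with 4.60 and 2.65 CPM in KO (log2 fold change -2.61 ± 0.84, edgeR adjusted p = 0.120). Irf8 and Irf1 had the highest CPM of the list. Irf8 was at 790 and 473 CPM in WT and at 277 and 277 CPM in KO (log2 fold change -1.19 ± 0.24, edgeR adjusted p = 0.0502).

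In a list of genes set down as inhibitors of the pathway, 2 of 11 tested genes fell, beside 1.56% of all genes, and 0 rose. At an unadjusted p under 0.05 edgeR had 1 higher, and DESeq2 called 1 higher. Socs1, which blocks JAK kinases, was at 242 and 200 CPM in WT and 95.8 and 87.8 CPM in KO (log2 fold change -1.27 ± 0.16, edgeR adjusted p = 0.0292). Ifrd1, a transcriptional corepressor, was at 120 and 86.8 CPM against 44.7 and 41.8 CPM (-1.25 ± 0.20, edgeR adjusted p = 0.0397). Whether Ifrd1 inhibits interferon signalling was not tested, and apart from it Socs1 alone was called. Samhd1, a dNTP hydrolase, and Ptpn6, the phosphatase SHP-1, had the highest CPM and were not called, with log2 fold changes of 0.13 ± 0.21 and 0.13 ± 0.14. The median of the list was -0.08.

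A list of 60 further interferon-stimulated genes, of which 56 were tested, held 3 that fell and 1 that rose. Of all genes, edgeR called 1.56% lower and 2.39% higher. At an unadjusted p under 0.05 the list had 17 lower and 3 higher, beside 12.7% and 12.8% of all genes. DESeq2 called 6 lower and 2 higher, beside 6.39% and 7.02% of the genes it tested. Cxcl10, a chemokine for CXCR3-bearing T cells, was at 56.8 and 31.4 CPM in WT and 14.9 and 13.0 CPM in KO (log2 fold change -1.66 ± 0.30, edgeR adjusted p = 0.0415). Ube2l6, the conjugating enzyme for ISG15, was at 33.2 and 28.9 CPM against 13.7 and 12.8 CPM (-1.23 ± 0.20, edgeR adjusted p = 0.0400). Of the ISG15 conjugation genes of the set, Isg15 was also called lower, while Usp18 and Herc6 were not called. Rnf213, a large ubiquitin ligase, was at 391 and 274 CPM against 172 and 167 CPM (-0.97 ± 0.19, edgeR adjusted p = 0.0480). Epsti1 rose, from 26.0 and 31.0 CPM to 63.1 and 58.6 CPM (1.10 ± 0.17, edgeR adjusted p = 0.0376), and was among the genes lower in WT replicate 1 than in WT replicate 2. Ly6a and Ly6e, with the highest CPM of the list, were not called (-0.51 ± 0.20 and 0.04 ± 0.15). Over the 56 genes the median was -0.37, and 28 had both KO libraries below both WT libraries (30.1% of all genes kept did). WT replicate 1 was above WT replicate 2 in 48 (50.2% of all genes) and at least 2-fold above it in 11 (4.83%).

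The list of genes induced mainly by interferon gamma, a different cytokine made by activated T cells, also held the cytokine's own gene, Ifng. Of the 21 genes 4 fell, Ifng among them, and 0 rose, with a median of -0.43. At an unadjusted p under 0.05 edgeR had 1 higher, and DESeq2 called 0 higher. Of all genes, edgeR called 1.56% lower. Ifng itself was at 215 and 280 CPM in WT and 48.2 and 40.8 CPM in KO (log2 fold change -2.48 ± 0.20, edgeR adjusted p = 0.0176). It was lower in WT replicate 1 than in WT replicate 2, unlike every member of the interferon-stimulated set. Ciita, which switches on class II genes, Irgm1, a GTPase of cell defence, and Gbp5, a guanylate-binding protein, fell by 1.46 ± 0.26, 1.33 ± 0.23 and 1.04 ± 0.15 on the log2 scale (edgeR adjusted p = 0.0400, 0.0400 and 0.0326). Gbp2 and Igtp, with the highest CPM of the list, were not called (-0.31 ± 0.14 and -0.21 ± 0.15). Many interferon-stimulated genes respond to both kinds of interferon.

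**Figure D4:**
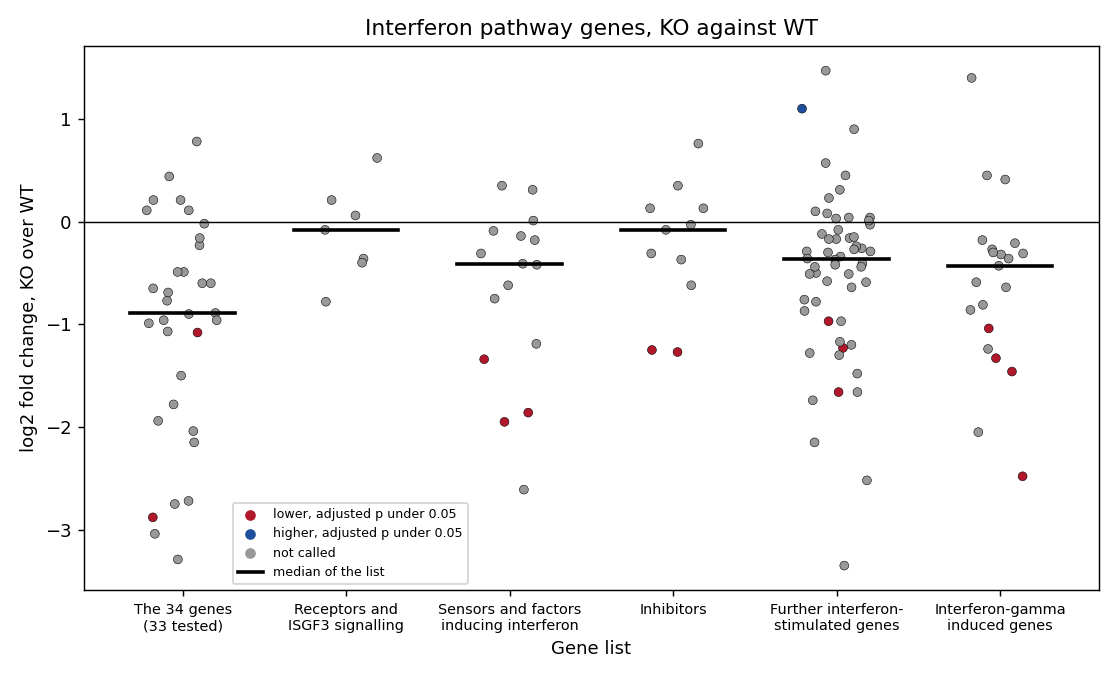
Log2 fold change of KO over WT (vertical axis) for the tested genes of each list (horizontal axis); each point is a gene, spread sideways for visibility, and the bar is the list's median. Red and blue points passed an edgeR adjusted p of 0.05. The median was -0.89 for the interferon-stimulated set and between -0.43 and -0.08 for the other lists.

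Markers of other cell types also differed between the libraries. For comparison with all the marker lists, 30.1% of all genes kept had both KO libraries below both WT libraries. Of all genes, edgeR called 1.56% lower and 2.39% higher. All 11 B cell markers had both KO libraries below both WT libraries, and 6 of them fell. Their summed level was 1486, 925, 523 and 475 CPM in WT replicates 1 and 2 and KO replicates 1 and 2. The 9 class II genes, 6 of which fell, summed to 4033, 2404, 1280 and 1107 CPM. Both sums were highest in WT replicate 1, as that of the interferon-stimulated set was, and had WT replicate 2 above the KO libraries. The summed level of the set did not have the latter order, but its median level did.

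Macrophage and monocyte markers summed to 196, 88.0, 36.8 and 30.8 CPM, with 5 of 14 tested and 2 called lower, while Fcgr1 and C1qa were at 0 in every library. The 2 were Mpeg1, at 154, 61.0, 25.95 and 21.0 CPM and most of the sum, and Spi1, at 27.4, 19.3, 4.95 and 3.15 CPM. Cd68 was nearly level, at 5.50, 5.34, 4.60 and 4.59 CPM (log2 fold change -0.24 ± 0.33). Adgre1 had overlapping groups (-1.14 ± 1.19), and Lyz2 was lower without a call (-3.42 ± 0.79). Dendritic cell markers summed to 763, 367, 412 and 361 CPM, with none of 7 called (edgeR gave 4 lower with unadjusted p under 0.05, while DESeq2 called 2 lower). Most of that sum was Ccr7, which T cells also express, at 526, 235, 338 and 321 CPM. Without Ccr7 the list summed to 237, 132, 74.3 and 40.5 CPM, with WT replicate 2 above both KO libraries. Of the 6 genes tested in it, 4 had a negative log2 fold change. The other 2, Itgax (0.45 ± 0.54) and Xcr1 (0.78 ± 0.75), had a positive one. Markers of plasmacytoid dendritic cells other than Bst2 and Irf8 summed to 101, 69.2, 53.7 and 59.1 CPM. Of 4 tested, 1 was called lower, and Pacsin1 had a positive log2 fold change (0.15 ± 0.19). Siglech, the defining marker of these cells, had 58 counts in WT replicate 1, 10 in WT replicate 2 and 0 in both KO libraries. Neutrophil markers summed to 10.2, 1.08, 0.212 and 0.860 CPM, with 99 counts of S100a8 in WT replicate 1 and 3, 0 and 0 in the others, and Cxcr2, Elane and Retnlg at 0 throughout.

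Erythroid markers summed to 127, 32.3, 6.86 and 3.08 CPM, with 2 of 4 tested called lower. Plasma cell markers summed to 314, 277, 231 and 203 CPM, with 2 of 5, Jchain and Mzb1, called lower. Most of the plasma cell sum was Xbp1, at 177, 206, 171 and 157 CPM, which was not called (log2 fold change -0.23 ± 0.15). Prdm1 and Sdc1 had positive log2 fold changes (0.36 ± 0.22 and 0.07 ± 0.52) with overlapping groups. The sum of T cell markers was higher in KO, at 1592, 1707, 2206 and 2225 CPM, with 3 of 8 (Cd3d, Cd3e and Cd3g) called higher. Lck also had both KO libraries above both WT libraries (log2 fold change 0.60 ± 0.16, not called). Cd2, Cd5, Zap70 and Lat had overlapping groups (0.15 ± 0.21, -0.09 ± 0.15, 0.14 ± 0.15 and -0.07 ± 0.14). NK cell markers summed to 94.9, 112, 215 and 165 CPM, with 1 of 5, Klrk1, called higher. Klrk1 and Gzma, which activated CD8+ T cells also express, had both KO libraries above both WT libraries. Ncr1, which is more restricted to NK cells, was at 2.75 and 2.70 CPM in WT and 0.778 and 0.287 CPM in KO (log2 fold change -2.34 ± 0.66, edgeR adjusted p = 0.0896). Eomes was at 64.2 and 56.98 CPM in WT and 45.96 and 56.85 CPM in KO (-0.24 ± 0.18), with WT replicate 2 and KO replicate 2 level. Klrb1c went the other way with overlapping groups, at 0.916 and 0.811 CPM in WT and 0.707 and 2.29 CPM in KO (0.79 ± 0.73). Sums of the B cell, class II, macrophage and erythroid lists were, like that of the interferon-stimulated set, highest in WT replicate 1. In the sum they differed from the set in having WT replicate 2 above both KO libraries. By the median of its 33 tested genes the set also had that order, at 21.2, 11.09, 10.75 and 8.89 CPM. The part of these markers in the differences of the interferon-stimulated genes was not tested.

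**Figure D5:**
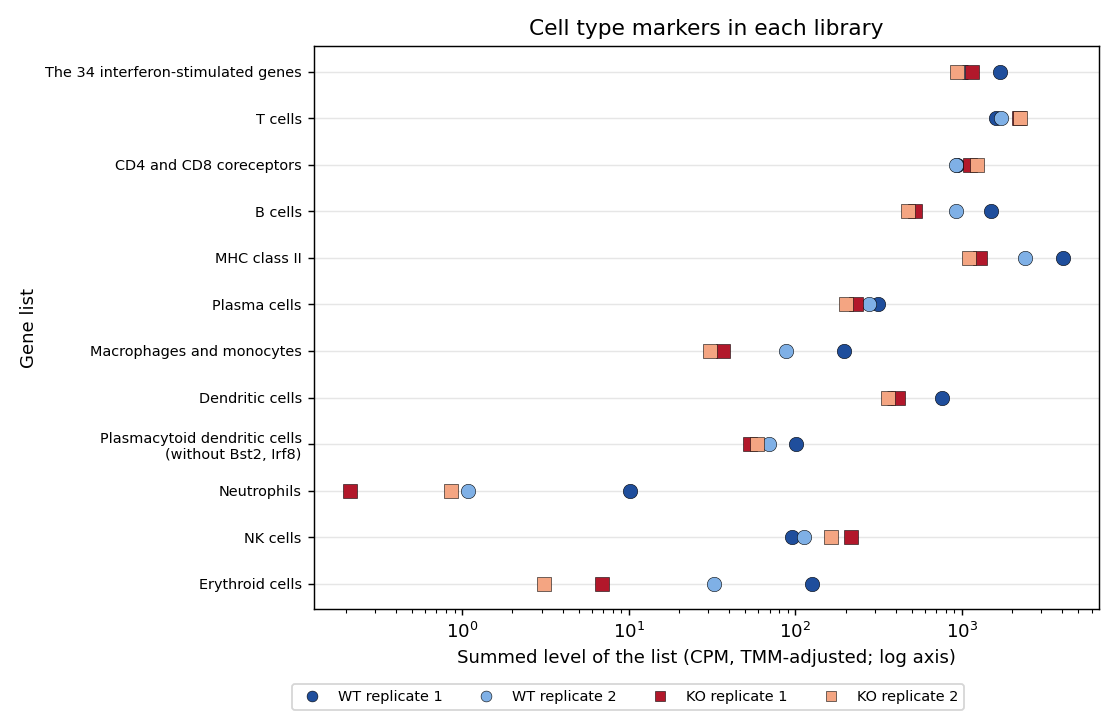
Summed level of the interferon-stimulated set and of each marker list (vertical axis) in the 4 libraries (horizontal log axis, CPM after TMM scaling). Circles are WT and squares KO libraries. B cell, class II, macrophage and erythroid lists are highest in WT replicate 1 and lowest in KO, and the T cell and NK sums are higher in KO.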

How the data were processed

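The deposited tables, 1 for each library, hold raw whole-number counts by gene symbol. The submitters' processing notes list Subread 2.0.1, featureCounts, mm10, R 4.0.4 and DESeq2 1.30.1. Not given in the sources used here are the aligner, annotation, strand setting and handling of multi-mapping reads. Libraries were depleted of ribosomal RNA, per the labels' protocols.

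Counts were fitted in R 4.3.3 with edgeR 4.0.16: filterByExpr (minimum count 10, minimum total count 15) kept 12752 genes, libraries were scaled by TMM, and KO was compared with WT by the quasi-likelihood test in all 4 libraries with no covariate, Benjamini-Hochberg adjusted over all genes kept and called under 0.05. SE is the size of the log2 fold change divided by the root of the F statistic. CPM uses TMM-adjusted totals. DESeq2 1.42.0, limma-voom (limma 3.58.1), other scalings, no filter, a replicate block and leaving out each library were alternatives. On simulated counts over 12500 genes the fit called 19.4% of 2-fold and 80.6% of 4-fold changes, and 0.122% of unchanged genes.

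The 34 genes and all lists were chosen with earlier results of these data known. Each of the 34 is named; of the pathway lists, called genes and the 2 with the highest mean CPM are named (1 such gene is not reported here), and the further receptor and ISGF3 genes, Irf7, Ifnb1 and single markers were chosen after their values were seen. Positions are from GENCODE M21 (GRCm38, called mm10), counted from 1, and promoters from RefSeq (GRCm38.p6). Replicates differed beyond sampling noise (chi-square per degree of freedom 40.3 within WT, 16.1 within KO).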

Additional observations from a re-analysis of the deposited data

How the results depend on the processing

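With 2 libraries per group, counts of calls depended on the test and on single libraries. Of the 34 genes, 2 were called lower with edgeR, 10 with DESeq2, 10 without the low-count filter, 7 with the replicate block, 1 with upper quartile factors, 1 with limma-voom and 2 with library size only; none was called higher under any of these. Leaving out 1 library gave 0 to 17 lower calls (1 without WT replicate 1, 17 without WT replicate 2, 0 without either KO replicate); the lone library was then assumed to vary like the others. Their median log2 fold change was -0.94 to -0.84 under the other settings and -1.20 to -0.31 when 1 library was left out, -0.31 being without WT replicate 1.

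Over all genes, 305 higher and 199 lower calls became 860 and 783 with DESeq2, 737 and 682 without the filter and 488 and 401 with the replicate block, and the lower calls became 122 with upper quartile factors. Leaving out 1 library gave 0 to 1423 higher and 0 to 1101 lower. Pathway genes outside the 34 had 1 higher and 12 lower calls, against 4 and 21 with DESeq2 and 3 and 22 without the filter, 2 higher with limma-voom, 2 higher with the replicate block, and 0 to 5 higher and 0 to 45 lower when 1 library was left out. The ISRE core was in 50% of promoters and in 95.8% with 1 mismatch allowed, by the looser match itself; otherwise the cause of these changes was not tested.

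Direction changed in 8 of the 34 genes, each time when a library was left out. With 1 library left out the log2 fold change ranged from -0.08 to 0.06 for Herc6, -0.02 to 0.49 for Ifit2, -1.75 to 0.12 for Mx1, -1.53 to 1.06 for Mx2, -0.39 to 0.90 for Samd9l, -0.07 to 0.33 for Dtx3l, -0.02 to 0.51 for Sp100 and -1.27 to 0.13 for Ifi27l2a. The highest value came without WT replicate 1 in each. The labels do not state that replicate numbers pair the libraries, so the block is given only here. Over all genes kept, same-numbered deviations had a correlation of 0.0397, which cannot exclude pairing. Among the 34 genes, replicate 1 was above replicate 2 in 34 within WT and in 25 within KO.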

Other observations

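Some interferon-inducible genes outside the 34 were also highest in WT replicate 1. The genes named here were chosen after their values were seen, and none of them was called by edgeR. Slfn5, a Schlafen family gene, was at 31.8 CPM in WT replicate 1, 6.08 CPM in WT replicate 2 and 3.61 and 3.01 CPM in KO (log2 fold change -2.52 ± 0.73, edgeR adjusted p = 0.0951), and at -0.87 without WT replicate 1. Among the PYHIN genes, which encode relatives of nuclear DNA sensors and form a cluster of similar sequences whose counts are uncertain, Ifi213 was at 50.8, 8.72, 7.28 and 6.09 CPM in WT replicates 1 and 2 and KO replicates 1 and 2. Ifi214 was at 21.4, 3.58, 8.77 and 8.96 CPM, and Ifi208 at 29.0, 6.56, 12.02 and 7.46 CPM. For Ifi214 and Ifi208 WT replicate 2 was the lowest library, as it was for Cmpk2 and Samd9l, and their log2 fold changes without WT replicate 1 were 1.31 and 0.58.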
